A study of Mus musculus with 24 samples.

Results

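The Tet family was followed through 4 of the 31928 rows of each deposited count table: 2 rows named Tet1, 1 named Tet2 and 1 named Tet3. Every row with one of these names was taken, and rows of the same gene were kept apart. A row carries a gene symbol only, and which transcript model it stands for is not given in the sources used here. The libraries came from 24 cultures of mouse embryonic stem cells (ESCs), 12 in ESC medium with leukemia inhibitory factor (LIF, the cytokine that holds ESCs in the pluripotent state; D0) and 12 from which LIF had been withdrawn for 6 days (D6). Each library was made from 1 clone, with WT and Tet1-/- represented by 3 clones each and Tet2-/-, DKO and TKO by 2 each on either day. Tet1-/- clone Tet1_KO_2.3 was sequenced at D0 only and Tet1_KO_2.2 at D6 only. Changes between days in Tet1-/- without a clone block therefore include an exchange of 1 clone. The DKO clones were edited at Tet1 and Tet2, and the TKO clones at all 3 genes. All clones, WT included, shared a 129/SVj background, feeder-free growth on gelatin and an eGFP knock-in at the Pou5f1 locus, and all traced to 1 parental clone. The knockouts were made by transient transfection of Cas9 with a guide RNA for each gene, so a genotype is a small set of clones of 1 line. The sources used here do not say whether the D0 and D6 libraries of a clone came from the same thaw.

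TET proteins are dioxygenases that oxidise 5-methylcytosine in DNA to 5-hydroxymethylcytosine and on to forms that base excision repair can remove, which makes them the entry point of active DNA demethylation. Tet1 carries a CXXC domain that binds CpG-rich DNA and is known as the main family member of pluripotent cells. Tet2 is co-expressed with it in ESCs and acts with partner proteins, while Tet3 is known from the oocyte, the zygote and differentiating lineages.

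The libraries held 18400463 to 37290208 counts, so a count of 3 corresponded to 0.083 to 0.155 CPM (a count scaled to a fixed library size), and each Tet row stood well above that floor in every library. Levels are given in CPM after TMM scaling, and the floor covers counting error only. Clones of 1 genotype and day differed by 8.02 to 97.6 times the sampling variance, and the widest pair was TKO at D0 (clones TKO_8.4 and TKO_8.12). Where 1 clone decided the call or sign of a Tet row in TKO, the value without it or the range over left-out libraries is given. Values of other genes were not recomputed without a clone in any genotype. The summed level of 15 naive pluripotency markers was 6100 to 7562 CPM at D0 and 1717 to 3521 CPM at D6. The sum of 6 genes listed as fibroblast feeder markers was at most 59.6 CPM at D0. At D6 that sum was 15.3 and 18.1 CPM in Tet2-/- and 39.3 to 388 CPM in the other genotypes. The cultures were grown feeder-free, so the sum is not read as an amount of feeder cells. In these bulk samples, fewer cells that express a gene and less RNA per cell cannot be told apart.

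The guide sites show where the edits lie in the genes. The windows below are read 5′ to 3′ on the strand of the gene, with the PAM (the bases beside the target that Cas9 requires) in capitals.
Tet1: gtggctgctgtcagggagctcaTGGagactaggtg
Tet2: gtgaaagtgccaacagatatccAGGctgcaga
Tet3: ggcaaggaggggaagagttctcgAGGctg
In build mm9 these windows lie at chr10:62296283-62296317 for Tet1, chr3:133148610-133148641 for Tet2 and chr6:83329882-83329910 for Tet3, all on the minus strand. The Tet1 gene spans chr10:62267318-62361866, Tet2 chr3:133126643-133207354 and Tet3 chr6:83312367-83391672. Each cut falls in a coding exon of the longest annotated transcript: exon 5 of 13 in Tet1, exon 3 of 11 in Tet2 and exon 5 of 11 in Tet3. The share of the coding sequence that precedes the cut is 68.6% in Tet1, 52.5% in Tet2 and 45.4% in Tet3, and the last 3 bases of the Tet1 window are intronic.

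Most alleles that the study sequenced were small deletions that end inside the window. Capitals in the following lines mark deleted bases, in 2 alleles of 1 Tet1-/- clone, the alleles found in the 2 Tet2-/- clones and the Tet3 alleles found in the 2 TKO clones.
Tet1-/- allele with 6 bases deleted: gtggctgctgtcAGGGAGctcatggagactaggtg
Tet1-/- allele with 7 bases deleted: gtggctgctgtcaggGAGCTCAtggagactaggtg
Tet2-/- allele with 13 bases deleted: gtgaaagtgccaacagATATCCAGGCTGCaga
Tet2-/- allele with 8 bases deleted: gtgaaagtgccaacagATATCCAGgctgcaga
TKO Tet3 allele with 2 bases deleted: ggcaaggaggggaagagtTCtcgaggctg
TKO Tet3 allele with 16 bases deleted: ggcaaggagGGGAAGAGTTCTCGAGgctg
Of 14 Tet1 alleles, 13 end inside the window, and 7 of those change the length by a multiple of 3 bases, which keeps the reading frame. The Tet1-/- clones held such a length change in 3 of 6 alleles. Of 10 Tet2 alleles, 9 end inside the window and 1 keeps the frame, in TKO. Both Tet3 alleles shift the frame. The study examined TET protein by Western blot, and nothing about protein is read from the frame here. A single allele is listed for each Tet2-/- clone and for Tet3 in each TKO clone, and per the study a large indel on the other allele could have escaped amplification. The clone numbers of these alleles were not matched to the library names, so no allele is assigned to a library here.

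The first comparison asked how the transcript of each gene stood in the clones edited at it. Tet2 transcripts were lower in every Tet2-edited clone at D0. In WT the Tet2 row was at 92.7, 93.1 and 87.2 CPM in clones O4.1, O4.2 and O4.13. The Tet1-/- clones, which are not edited at Tet2, gave 83.1, 112 and 89.2 CPM (clones Tet1_KO_2.1, Tet1_KO_2.3 and Tet1_KO_2.4). These 6 unedited libraries overlapped. The Tet2-/- clones Tet2_KO_3.10 and Tet2_KO_3.11 were at 20.5 and 22.5 CPM. DKO clones DKO_5.11 and DKO_5.12 gave 54.9 and 22.1 CPM, and TKO clones TKO_8.4 and TKO_8.12 gave 41.5 and 8.01 CPM. All 6 edited libraries lay below the lowest unedited library, and the 2 clones of DKO and of TKO differed from each other by 2.49 and 5.19 times. In order of their means, the genotypes ran Tet1-/- 94.7, WT 91.0, DKO 38.5, TKO 24.8 and Tet2-/- 21.5 CPM. The first pair overlapped, as did the last 3, and the gap lay between WT and DKO.

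**Figure D1:**
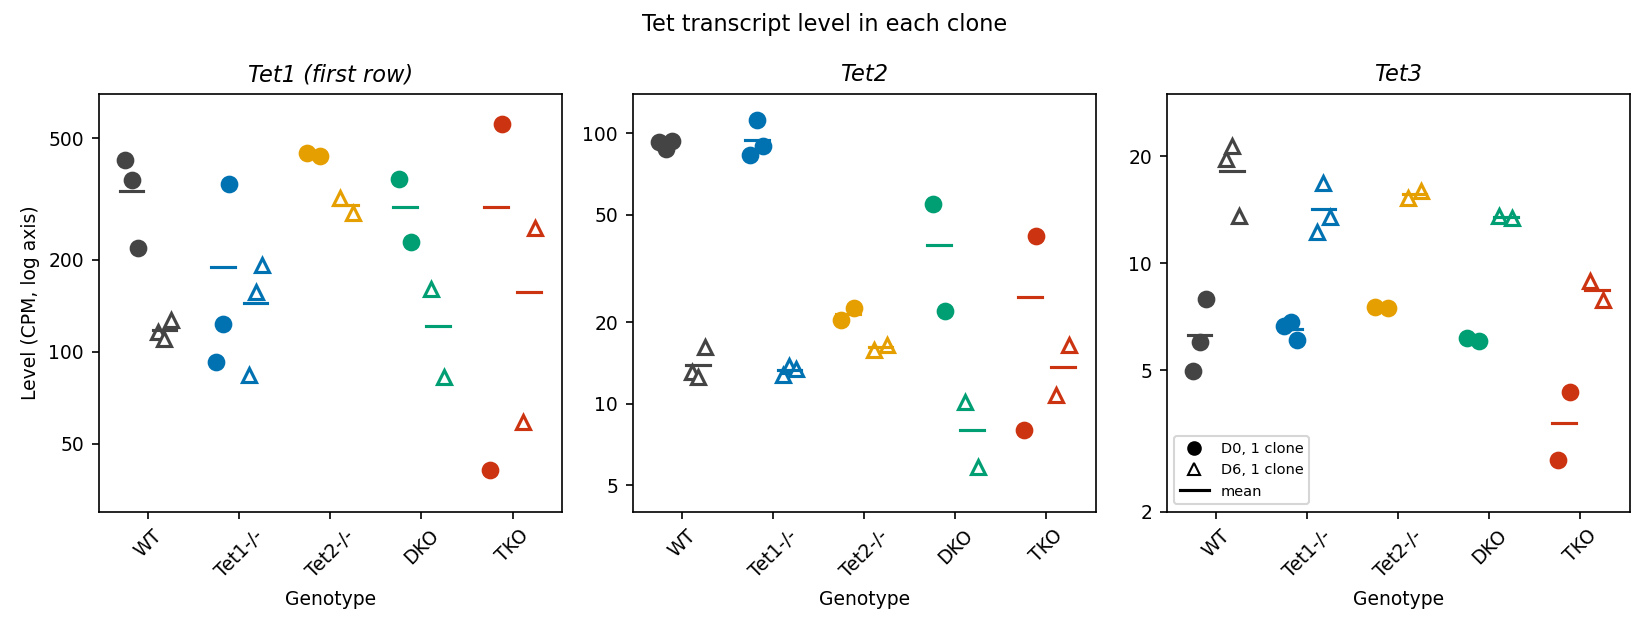
Level of the first Tet1 row, Tet2 and Tet3 in CPM (log axis) for each clone, by genotype, with filled circles for D0, open triangles for D6 and short lines for the group mean. At D0 the 6 Tet2-edited clones sit at 8.01 to 54.9 CPM for Tet2, below the 83.1 to 112 CPM of the other clones, and at D6 the clones of all genotypes lie at 5.84 to 16.5 CPM.

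Against WT, edgeR's quasi-likelihood test gave a Tet2 log2 fold change of -2.09 ± 0.516 (SE) in Tet2-/- (adjusted p = 0.0291) and -1.88 ± 0.511 in TKO (adjusted p = 0.0411). Both passed the criteria for a call, an adjusted p under 0.05 and a change over 2-fold. In DKO the log2 fold change was -1.25 ± 0.495 (adjusted p = 0.284), which did not pass. The adjusted p of Tet2-/- rose to 0.188 without clone Tet2_KO_3.10 and 0.189 without clone Tet2_KO_3.11, when 1 clone stood for the genotype and was assumed to vary like the others, and to 0.0861 when O4.2 and 0.0792 when O4.13 was dropped from WT. For TKO the log2 fold change was -3.51 without clone TKO_8.4 and -1.14 without clone TKO_8.12, and each of 8 single libraries of WT, Tet1-/- and Tet2-/-, when left out, took the adjusted p above 0.05 (0.0612 to 0.0962). Taken by edit rather than by genotype, the 6 edited libraries differed from the 6 unedited by -1.90 in mean log2 level (exact permutation test, two-sided p = 0.00216, adjusted p = 0.0130 over 6 such tests). That difference stayed between -2.13 and -1.60 when any 1 library was left out.

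Tet1 transcripts, by contrast, spread widely at D0 between clones of every genotype but Tet2-/-. WT clones O4.1, O4.2 and O4.13 were at 425, 219 and 365 CPM on the first Tet1 row, and the Tet2-/- clones Tet2_KO_3.10 and Tet2_KO_3.11, also unedited at Tet1, at 447 and 438 CPM. The Tet1-/- clones Tet1_KO_2.1, Tet1_KO_2.3 and Tet1_KO_2.4 gave 92.4, 124 and 354 CPM. DKO clones DKO_5.11 and DKO_5.12 gave 367 and 228 CPM. TKO held both ends of the range, with 555 CPM in clone TKO_8.4 and 40.9 CPM in clone TKO_8.12. Only 3 of the 7 edited libraries, Tet1_KO_2.1, Tet1_KO_2.3 and TKO_8.12, lay below the lowest unedited library, and clone TKO_8.4 lay above all of them. The means ran Tet2-/- 443, WT 336, TKO 298, DKO 298 and Tet1-/- 190.0 CPM, and every neighbour from WT down overlapped.

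None of the Tet1 contrasts against WT passed at D0. The log2 fold change was -0.84 ± 0.687 in Tet1-/- (95% confidence interval -2.34 to 0.65, adjusted p = 0.670), 0.38 ± 0.755 in Tet2-/-, -0.19 ± 0.765 in DKO and -0.18 ± 0.765 in TKO (adjusted p = 0.771, 0.935 and 0.909). For TKO the value was -3.04 (adjusted p = 0.00290) without clone TKO_8.4 and 0.72 (adjusted p = 0.333) without clone TKO_8.12, so each clone decided the sign. For Tet1-/- it ran from -1.66 without clone Tet1_KO_2.4 to -0.52 without clone Tet1_KO_2.1, and no omission gave a call (adjusted p = 0.201 to 0.907). The 7 libraries edited at Tet1 differed from the other 5 by -0.97 in mean log2 level at D0 (exact permutation test, two-sided p = 0.152, adjusted p = 0.227). At D6 that difference was -0.44 (exact p = 0.332, adjusted p = 0.398).

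Tet3, the least abundant of the family at D0, was edited in TKO alone and was lowest there. Its level at D0 was 4.98, 7.90 and 6.00 CPM in WT clones O4.1, O4.2 and O4.13, and 6.65, 6.82 and 6.09 CPM in Tet1-/- clones Tet1_KO_2.1, Tet1_KO_2.3 and Tet1_KO_2.4. The Tet2-/- clones gave 7.52 and 7.49 CPM and the DKO clones 6.17 and 6.04 CPM. TKO clones TKO_8.4 and TKO_8.12 were at 4.33 and 2.79 CPM. Both lay below the other 10 libraries, whose genotypes overlapped except that Tet2-/- lay above Tet1-/- and DKO. The difference from WT was -0.82 ± 0.228 on the log2 scale (adjusted p = 0.0449), which is 1.77-fold lower and so below the 2-fold criterion. Without clone TKO_8.12 it was -0.55 (adjusted p = 0.126) and without clone TKO_8.4 it was -1.17 (adjusted p = 0.00404).

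Counted over the 4 rows at D0, 1 was called in Tet2-/- (2.93% of the 21741 rows tested were called) and 1 in TKO (3.13% of rows), in both cases Tet2. With 1 WT library left out, these shares of all rows were 0.707% to 3.79% and 1.6% to 2.75%. By edgeR 0 of 4 were called in Tet1-/- (0.0046% of rows), 0 of 4 in DKO (0.0276%) and 0 of 4 in TKO against DKO (0.699%). At an unadjusted p under 0.05 these counts were 0, 1 (Tet2) and 1 (Tet3), beside 12.6%, 14.1% and 19.3% of all rows, and DESeq2 called 0 of 4 in each. TKO clones carry a Tet3 edit and DKO clones do not, though the clones also differ in their Tet1 and Tet2 alleles. The Tet3 row differed between them by -0.77 ± 0.248 (adjusted p = 0.129), with -1.12 (adjusted p = 0.0127) without clone TKO_8.4 and -0.50 (adjusted p = 0.181) without clone TKO_8.12. Without clone TKO_8.4 all 4 rows passed in TKO against DKO, beside 3.94% of all rows in that fit, the Tet1 rows at -2.86 and -2.85 (adjusted p = 0.00844 and 0.00853) and Tet2 at -2.26 (adjusted p = 0.00164). Without clone TKO_8.12 none passed, beside 6.12% of all rows, with 0.90 for the first Tet1 row and 0.10 for Tet2.

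**Figure D2:**
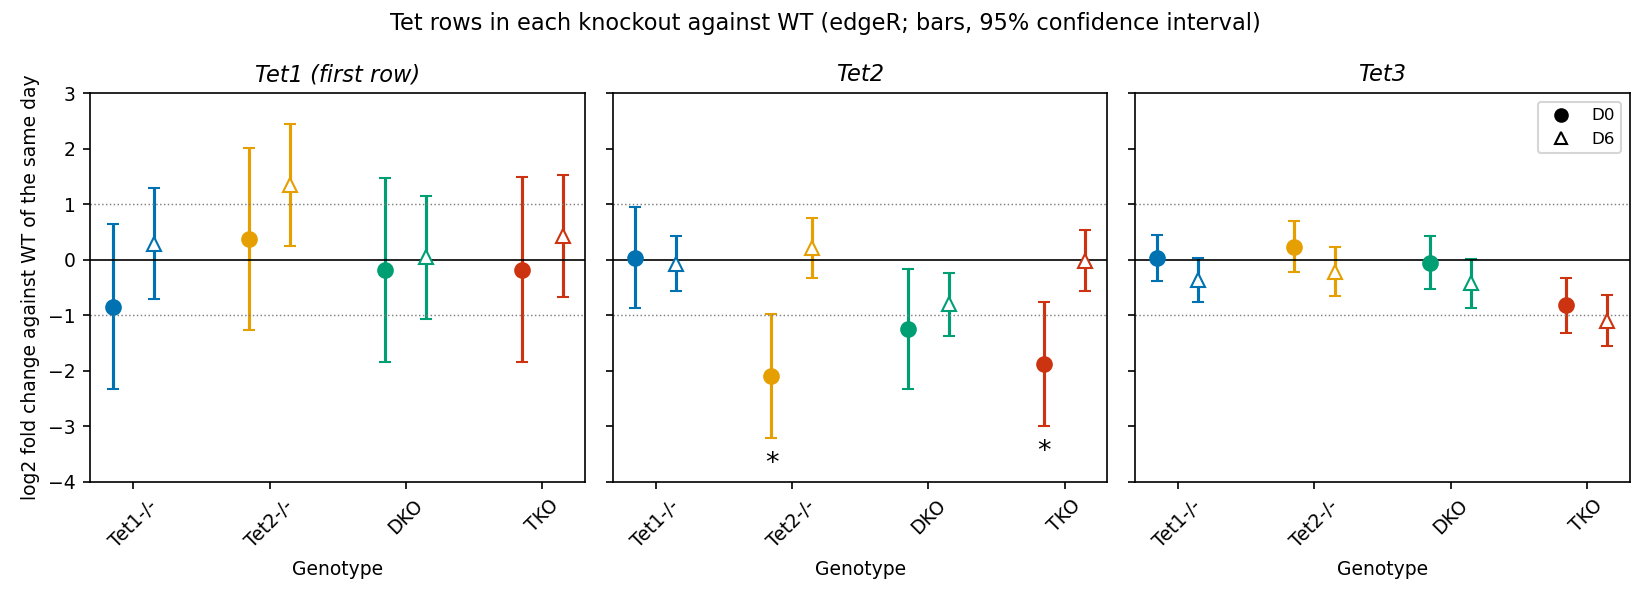
Log2 fold change of the first Tet1 row, Tet2 and Tet3 in each knockout against WT of the same day (filled circles, D0; open triangles, D6), with 95% confidence intervals from edgeR, dotted lines at 2-fold and asterisks on the calls. The asterisks fall on Tet2 at D0 in Tet2-/- (-2.09) and TKO (-1.88), and within each day the intervals of Tet1 are the widest.

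At D6 the Tet2 levels of edited and unedited clones overlapped. WT clones O4.1, O4.2 and O4.13 gave 13.1, 16.2 and 12.5 CPM, and Tet1-/- clones Tet1_KO_2.1, Tet1_KO_2.2 and Tet1_KO_2.4 gave 12.8, 13.8 and 13.5 CPM. The Tet2-/- clones were at 15.9 and 16.5 CPM. DKO clones DKO_5.11 and DKO_5.12 gave 10.2 and 5.84 CPM, the 2 lowest values, and TKO clones TKO_8.4 and TKO_8.12 gave 16.5 and 10.7 CPM. The range of edited clones, 5.84 to 16.5 CPM, thus held all of the unedited ones. Edited and unedited libraries differed by -0.18 in mean log2 level (exact permutation test, two-sided p = 0.517, adjusted p = 0.517). Against WT the log2 fold change was 0.21 ± 0.247 in Tet2-/- (95% confidence interval -0.33 to 0.76, adjusted p = 0.531), -0.80 ± 0.257 in DKO (adjusted p = 0.227) and -0.02 ± 0.250 in TKO (adjusted p = 0.976). The TKO value was -0.38 without clone TKO_8.4 and 0.27 without clone TKO_8.12.

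Tet1 at D6 was highest in Tet2-/-. WT clones O4.1, O4.2 and O4.13 stood close together at 116, 127 and 111 CPM, and Tet1-/- clones Tet1_KO_2.1, Tet1_KO_2.2 and Tet1_KO_2.4 at 83.9, 157 and 193 CPM. The Tet2-/- clones Tet2_KO_3.10 and Tet2_KO_3.11 gave 318 and 284 CPM. DKO clones DKO_5.11 and DKO_5.12 gave 160.4 and 82.4 CPM, and TKO clones TKO_8.4 and TKO_8.12 gave 254 and 58.8 CPM. Both Tet2-/- libraries lay above the other 10, and the remaining genotypes overlapped one another. In TKO the difference from WT was 0.43 (adjusted p = 0.626), with -1.0003 (adjusted p = 0.205) without clone TKO_8.4 and 1.14 (adjusted p = 0.226) without clone TKO_8.12. The Tet2-/- difference from WT was 1.35 ± 0.498 (adjusted p = 0.0614), a 2.55-fold higher level that missed the threshold by edgeR and passed it by DESeq2 (1.39, adjusted p = 0.0158). By edgeR it passed without either TKO library and did not pass in the other 10 fits that left out 1 library (adjusted p from 0.0126 to 0.197 over all 12, log2 difference 1.29 to 1.44). The summed naive pluripotency markers of these Tet2-/- libraries were 3310 and 3521 CPM, against 1717 to 2639 CPM in the other genotypes. Of 5 other marker lists of embryonic lineages, 3 had lower sums in Tet2-/- than in WT, at 66.9 and 101 against 279.7 to 921 CPM for 9 mesoderm genes, 20.8 and 25.2 against 78.5 to 294 CPM for 7 endoderm genes and 130.3 and 135 against 628 to 1380 CPM for 6 trophectoderm genes. The neuroectoderm sum overlapped (78.5 and 86.6 against 74.6 to 120.2 CPM), although 3 of the 4 genes tested in that list were called higher and 0 lower. The formative and primed epiblast sum was higher in Tet2-/- (1455 and 1632 against 1034 to 1451 CPM), with 1 of 6 genes called higher and 0 lower. Over all rows 14.6% were called in this contrast. The part of any of these in the result was not tested.

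Tet3 at D6 was again lowest in TKO. It was at 19.6, 13.6 and 21.4 CPM in WT clones O4.1, O4.2 and O4.13, at 12.2, 16.9 and 13.5 CPM in Tet1-/- clones Tet1_KO_2.1, Tet1_KO_2.2 and Tet1_KO_2.4, at 15.3 and 15.9 CPM in Tet2-/- and at 13.6 and 13.4 CPM in DKO. TKO clones TKO_8.4 and TKO_8.12 gave 7.89 and 8.91 CPM, below all others. The TKO difference from WT was -1.10 ± 0.210, or 2.14-fold lower (adjusted p = 0.0695 by edgeR and 0.000183 by DESeq2). It was -1.02 (adjusted p = 0.0744) without clone TKO_8.4 and -1.17 (adjusted p = 0.207) without clone TKO_8.12. It was called when WT clone O4.2 (-1.27, adjusted p = 0.0125), Tet1-/- clone Tet1_KO_2.2 (adjusted p = 0.0344) or Tet1-/- clone Tet1_KO_2.4 (adjusted p = 0.0457) was left out. By edit, the 2 edited libraries lay below the other 10 at both days, by -0.74 at D0 and -0.80 at D6 in mean log2 level. Each exact permutation p was 0.0152, the smallest that 2 against 10 libraries can give (adjusted p = 0.0303).

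By edgeR, 0 of 4 rows were called at D6 in any contrast. The share of all 23182 tested rows was 14.6% in Tet2-/- against WT, and 0% in Tet1-/-, DKO and TKO against WT and in TKO against DKO. Without WT clone O4.2 it was 17.4% in Tet2-/- and 4.42% in TKO, and without O4.13 it was 9.37% and 0%. In TKO it was 1.37% without Tet1-/- clone Tet1_KO_2.2 and 1.2% without Tet1_KO_2.4. At an unadjusted p under 0.05 the member counts were 2 in Tet2-/- (both Tet1 rows, beside 43.8% of all rows), 0 in Tet1-/-, 1 in DKO (Tet2), 1 in TKO (Tet3) and 2 in TKO against DKO (Tet2 and Tet3). DESeq2 called 2, 0, 0, 1 and 0 of them. The absence of calls held for the whole table in the contrasts at 0%, where 2889, 3397, 5436 and 1951 rows had an unadjusted p under 0.05 in Tet1-/-, DKO, TKO and TKO against DKO, and DESeq2 called 62, 269, 714 and 10.

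The second comparison asked how the 3 genes changed over 6 days without LIF. The D0 and D6 libraries were deposited as separate tables, and a batch that goes with day could not be told apart from LIF withdrawal. In WT, Tet2 fell, Tet3 rose and Tet1 was lower in every clone. Tet2 fell by 2.70 ± 0.403 on the log2 scale, or 6.51-fold (adjusted p = 1.12e-05), and the 3 WT clones retained 14.2% to 17.4% of their D0 level. Tet3 rose by 1.53 ± 0.197, or 2.89-fold (adjusted p = 2.01e-06). The first Tet1 row changed by -1.51 ± 0.661 (adjusted p = 0.0507), and the clones retained 27.4%, 58.0% and 30.3% of the D0 level. The second Tet1 row, also at -1.51, had an adjusted p of 0.0499, so the 2 rows fell on opposite sides of the threshold. The call of the second row was lost with RLE scaling (adjusted p = 0.0510) and in 17 of 24 fits that left out 1 library (adjusted p up to 0.125). With clone as a block, which sets each D6 library against the D0 library of the same clone, the first row gave -1.46 (adjusted p = 0.000642).

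**Figure D3:**
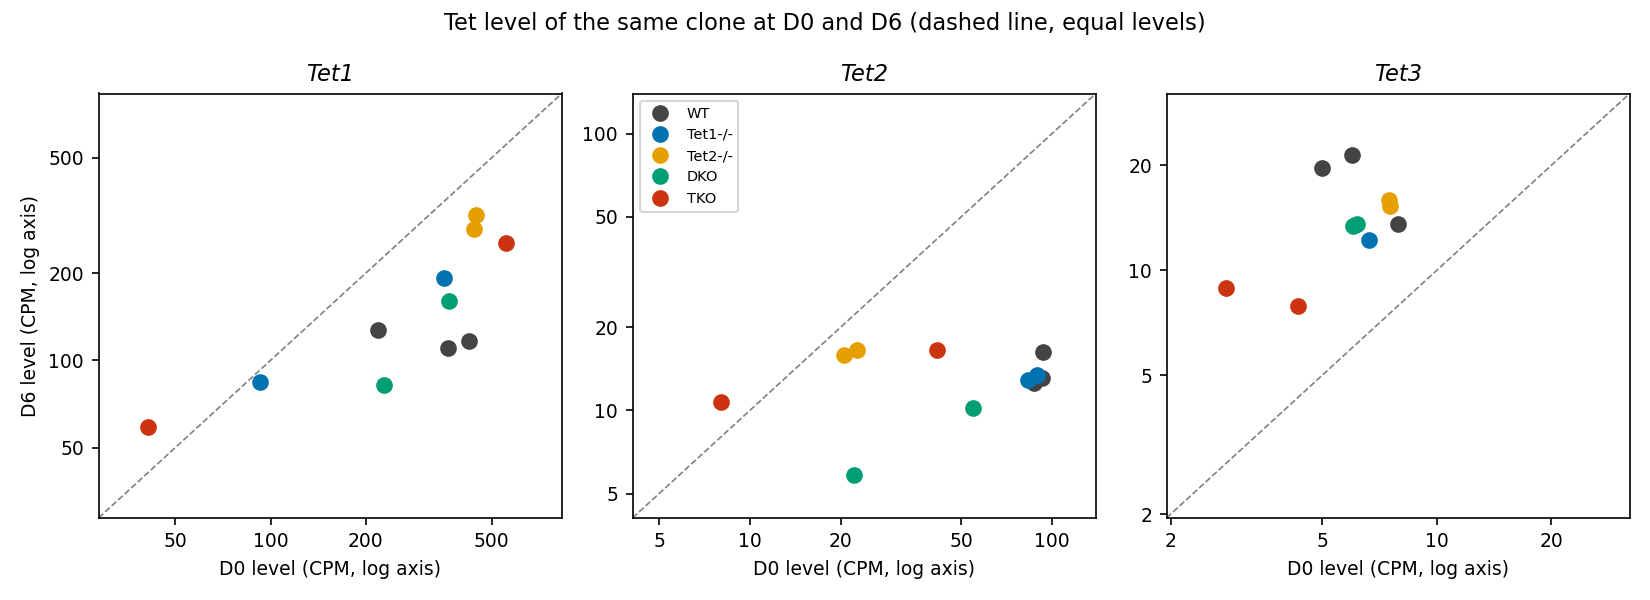
Level at D6 against level at D0, in CPM on log axes, for the 11 clones sequenced at both days, with genotype by colour and a dashed line of equal levels. Tet3 lies above the line in 11 of 11 clones, and Tet1 and Tet2 lie below it in 10 of 11, the exception in both being TKO clone TKO_8.12.

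Tet3 rose in all 5 genotypes. The log2 change was 1.12 ± 0.195 in Tet1-/- (adjusted p = 6.87e-05), 1.06 ± 0.236 in Tet2-/- (adjusted p = 0.00168), 1.14 ± 0.240 in DKO (adjusted p = 0.000597) and 1.24 ± 0.249 in TKO (adjusted p = 0.000493). Every one of the 11 clones present at both days was higher at D6, at 171% to 394% of its D0 level. The TKO clones, edited at Tet3, reached 182% and 319%, within the range of the others. Leaving out TKO clone TKO_8.12 at D0 lowered the TKO change to 0.95 (adjusted p = 0.0131), and leaving out Tet1-/- clone Tet1_KO_2.2 at D6 lowered the Tet1-/- change to 0.98 (adjusted p = 0.000562), both under the 2-fold criterion.

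Tet2 fell in Tet1-/- and DKO as well as in WT. The change was -2.83 ± 0.404 in Tet1-/- (adjusted p = 8.14e-06) and -2.27 ± 0.494 in DKO (adjusted p = 0.000797), both called. With 1 library left out the DKO change ran from -2.78 to -1.46. In Tet2-/- it was -0.41 ± 0.470 (95% confidence interval -1.39 to 0.57, adjusted p = 0.513) and in TKO -0.85 ± 0.477 (adjusted p = 0.144). The Tet2-/- clones Tet2_KO_3.10 and Tet2_KO_3.11 retained 77.4% and 73.4% of a D0 level of 20.5 and 22.5 CPM, above the 12.5 to 16.2 CPM of WT at D6. TKO clone TKO_8.4 retained 39.8%, while clone TKO_8.12, with the lowest D0 level of all, stood at 134%. Without clone TKO_8.12 at D0 the TKO change was -1.60 (adjusted p = 0.00186), and without clone TKO_8.4 it was 0.78 (adjusted p = 0.118).

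Tet1 was lower at D6 in 10 of 11 clones, but by unequal amounts. The retained share was 90.8% and 54.4% in Tet1-/- clones Tet1_KO_2.1 and Tet1_KO_2.4, 71.1% and 64.9% in Tet2-/- clones Tet2_KO_3.10 and Tet2_KO_3.11, 43.7% and 36.1% in DKO clones DKO_5.11 and DKO_5.12, and 45.8% in TKO clone TKO_8.4. TKO clone TKO_8.12 stood at 144%. The change by genotype was -0.39 ± 0.648 in Tet1-/- (adjusted p = 0.608), -0.56 ± 0.791 in Tet2-/- (adjusted p = 0.606), -1.29 ± 0.804 in DKO (adjusted p = 0.179) and -0.93 ± 0.798 in TKO (adjusted p = 0.346). None was called without a block. The TKO value was -1.82 without clone TKO_8.12 at D0 (adjusted p = 0.0409, a call) and 1.94 without clone TKO_8.4 at D0 (adjusted p = 0.0538). With clone as a block, DKO passed (-1.33, adjusted p = 0.00533).

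Of the 4 rows, 3 were called between days in WT, the second Tet1 row among them (33.7% of the 23344 rows tested), 2 in Tet1-/- (31% of rows), 1 in Tet2-/- (19.4%), 2 in DKO (29.1%) and 1 in TKO (25.5%). Changes of this kind were thus common in the table as a whole.

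The test of whether a knockout effect differed between days singled out Tet2 in Tet2-/-. Its effect was -2.09 at D0 and 0.21 at D6, and the interaction term was 2.29 ± 0.613 (adjusted p = 0.0183). This was 1 of 4 rows called, against 9.24% of all rows. The term lay between 2.22 and 2.42 when any 1 library was left out, but without any 1 of the 4 Tet2-/- libraries its adjusted p rose to between 0.0551 and 0.0856. In TKO the Tet2 term was 1.85 ± 0.614 (adjusted p = 0.0764) and 0 of 4 rows were called by edgeR or DESeq2 (3.58% of all rows by edgeR). At an unadjusted p under 0.05 there was 1, beside 24% of all rows. With clone as a block the TKO term passed (2.18, adjusted p = 0.00885), and it was 3.48 (adjusted p = 0.00161) without clone TKO_8.4 and 1.11 (adjusted p = 0.111) without clone TKO_8.12 at D0. In DKO it was 0.43 ± 0.612 (adjusted p = 0.908) and in Tet1-/- -0.12 ± 0.540 (adjusted p = 0.977). In both of these 0 of 4 rows were called by edgeR (0% of all rows, with 1742 rows in Tet1-/- and 1852 in DKO at an unadjusted p under 0.05), 0 of 4 passed without adjustment, and DESeq2 called 0 of 4, and 21 and 32 rows of the table. The first Tet1 row had a TKO term of 0.59 (adjusted p = 0.778), with 3.45 (adjusted p = 0.0386, a call) without clone TKO_8.4 and -0.31 (adjusted p = 0.851) without clone TKO_8.12 at D0. For Tet3 the interaction terms were -0.30 to -0.48 in the 4 knockouts, and none passed (adjusted p = 0.284 to 0.816).

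Levels can be compared between the 3 genes only per length of transcript. The longest annotated transcripts, of 14369 nt (Tet1), 9179 nt (Tet2) and 10904 nt (Tet3), were taken as the lengths. This is an assumption that scales every level per kb, ratio and share between genes. In WT at D0 the level was 23.4 ± 7.36 CPM per kb for Tet1, 9.91 ± 0.363 for Tet2 and 0.577 ± 0.136 for Tet3 (SD, n = 3). At D6 it was 8.21 ± 0.587, 1.52 ± 0.217 and 1.67 ± 0.378. The order Tet1, Tet2, Tet3 of D0 thus became Tet1 followed by Tet2 and Tet3 at levels within their spread. The ratio of Tet2 to Tet3 per length was 17.8 ± 4.08 at D0 and 0.972 ± 0.395 at D6, and that of Tet1 to Tet2 was 2.37 ± 0.759 and 5.43 ± 0.372.

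As a share of the summed Tet level per length, Tet1 made up 67.9% ± 8.30 in WT at D0 and 71.95% ± 2.44 at D6 (SD, n = 3). Tet2 went from 30.3% ± 7.46 to 13.3% ± 1.39, and Tet3 from 1.82% ± 0.850 to 14.7% ± 3.80. In Tet2-/- the Tet1 share was 91.0% ± 0.539 at D0 and 86.7% ± 1.25 at D6 (n = 2), above the range of WT clones at both days (58.4% to 73.7% and 69.8% to 74.6%). The DKO clones also lay above the WT range at both days, at 79.6% to 84.3% and 75.5% to 82.6%. The lowest Tet1 share was that of Tet1-/- at D0, 50.3% ± 17.6 (n = 3), with clones between 39.98% and 70.6%. In 2 of these 3 clones, Tet1_KO_2.1 and Tet1_KO_2.3, the Tet2 share was the higher one (56.2% and 56.9%). These shares describe transcripts and not protein.

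**Figure D4:**
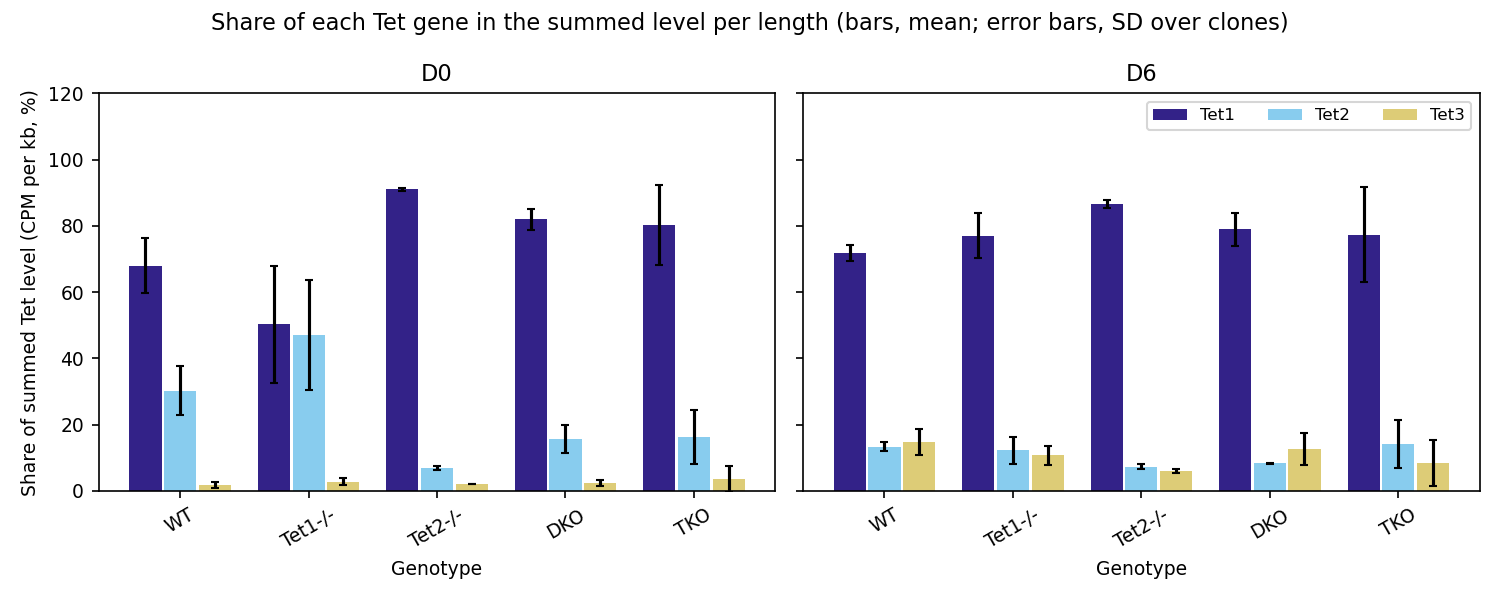
Share of each Tet gene in the summed Tet level (CPM per kb, percent) by genotype at D0 and D6, as mean with SD over 2 or 3 clones. In WT the Tet3 share goes from 1.82% to 14.7% while that of Tet2 goes from 30.3% to 13.3%, and Tet1 holds the highest mean share in all 10 groups, although Tet2 is higher in 2 of the 3 clones of Tet1-/- at D0.

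The 2 Tet1 rows held almost the same counts. The second row held 98.7% to 99.6% of the counts of the first (median 99.0%). No difference in the ratio of the rows by edit at D0 or D6 or by day passed adjustment (exact permutation tests within a day and a permutation test between days, adjusted p = 0.929, 0.220 and 0.929), with differences of at most 0.00354 on the log2 scale. By edit at D6 the unadjusted p was 0.0732, and it was 0.0121 without Tet2-/- clone Tet2_KO_3.10 and 0.0476 without DKO clone DKO_5.11 (exact permutation tests). Counts over the 4 rows hold Tet1 in 2 of them.

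The 11 clones sequenced at both days show how far a clone kept its place among the others. For Tet1, log2 levels at D6 followed those at D0 across clones (Pearson r = 0.793, permutation p = 0.00084, adjusted p = 0.00252 over the 3 genes; Spearman rho = 0.809, permutation p = 0.00409). Without the 2 clones farthest from the median at D0, TKO_8.12 and Tet1_KO_2.1, r was 0.705 (permutation p = 0.0339). Within the 6 clones edited at Tet1, r was 0.908 (exact permutation p = 0.00833). The order was not kept within WT, where clone O4.2 was lowest at D0 and highest at D6. This relation was looked for after the data were seen. For Tet2 the same r was 0.256 (permutation p = 0.460, rho = 0.191). For Tet3 it was 0.534 (permutation p = 0.0958, rho = 0.291), and -0.418 without the 2 TKO clones, so the positive value rests on them.

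Tet1 and Tet2 are known to be expressed with the naive pluripotency network, so each gene was set beside the sum of 15 naive markers over the 12 libraries of a day. Of 6 relations, 0 had an adjusted p under 0.05 by permutation of Pearson's r, and 3 had an unadjusted p below it. At D0 these were Tet2 (r = 0.635, permutation p = 0.0254, rho = 0.273) and Tet3 (r = 0.734, permutation p = 0.0119, rho = 0.671). Without TKO_8.12 and Tet1_KO_2.3, the libraries farthest from the median marker sum, r was 0.123 and 0.348, and rho was -0.261 and 0.564. At D6 it was Tet1 (r = 0.617, permutation p = 0.0331, rho = 0.594), and r was 0.236 and rho 0.309 without the 2 Tet2-/- libraries, which carried both the highest marker sums and the highest Tet1 levels. All 3 relations had an adjusted p of 0.0662, and Pearson's r of each rested on the libraries left out, while rho of Tet3 at D0 stayed near its full value. The remaining r were 0.329 for Tet1 at D0, 0.417 for Tet2 at D6 and -0.336 for Tet3 at D6 (adjusted p = 0.288, 0.270 and 0.288), with rho of 0.091, 0.629 and -0.350. By rank, Tet2 at D6 thus also had an unadjusted permutation p under 0.05 (0.0322, adjusted 0.0927). The r of Tet3 at D6 became -0.781 (unadjusted permutation p = 0.00770) without the Tet2-/- libraries.

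The rest of the DNA methylation machinery gives a frame for the Tet rows. A list of 31 genes held the methyltransferases and their cofactors, the glycosylases and repair factors that process oxidised cytosine, TET partners and genes that protect methylation, and 29 of them were tested at D0 and 31 at D6. At D0, 0 of 29 were called by edgeR in Tet1-/-, Tet2-/- and DKO against WT and in TKO against DKO, with 4, 3, 3 and 7 at an unadjusted p under 0.05, and DESeq2 called 0 in each as well. Over all rows, 0.0046%, 2.93%, 0.0276% and 0.699% were called in these contrasts, and 12.6%, 29.2%, 14.1% and 19.3% had an unadjusted p under 0.05. In TKO 1 gene was called, beside 3.13% of all rows: Dnmt3l, the catalytically inactive partner of the de novo methyltransferases, was at 106 to 120 CPM against 247 to 259 CPM in WT, a log2 change of -1.15 ± 0.108 (adjusted p = 0.000425). The median log2 change of the list lay between -0.07 and 0.16 in these contrasts, beside -0.02 to 0.02 over all rows.

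At D6, 4 of 31 list genes were called in Tet2-/- against WT, beside 14.6% of all rows. That share was 9.37% to 17.4% with 1 WT library left out, and the list genes were not recomputed without either Tet2-/- clone. Dnmt3l was higher (1.44, adjusted p = 0.0301), at 134 and 174 CPM against 47.4 to 64.1 CPM in WT. It was at 174 and 211 CPM in DKO and 134 and 179 CPM in TKO, also above WT, where its differences of 1.76 and 1.47 did not pass (adjusted p = 0.189 and 0.0931). The stress response genes Gadd45b (-1.51, adjusted p = 0.00505) and Gadd45g (-1.62, adjusted p = 0.0337) and Dppa3, which protects methylation in the zygote (-2.85, adjusted p = 0.0389), were lower. Dnmt3a, a de novo methyltransferase, was higher by 0.98 (adjusted p = 0.00224), just under 2-fold. Dnmt1, the maintenance methyltransferase, differed by 0.30 (adjusted p = 0.0493), its recruiter Uhrf1 by 0.57 (adjusted p = 0.00639) and Ogt, the glycosyltransferase that binds TET proteins, by 0.57 (adjusted p = 0.0107), all within 2-fold. The glycosylase Tdg differed by 0.25 (adjusted p = 0.413). In this contrast 18 of 31 list genes had an unadjusted p under 0.05, beside 43.8% of all rows. The median log2 change of the list was 0.30, beside -0.05 over all rows. By edgeR 0 of 31 were called in Tet1-/-, DKO and TKO against WT and in TKO against DKO, with 4, 6, 8 and 8 at an unadjusted p under 0.05, and DESeq2 called 0, 1, 3 and 0. Over all rows edgeR called 0% in these 4 contrasts, 12.5%, 14.7%, 23.4% and 8.42% had an unadjusted p under 0.05, and DESeq2 called 62, 269, 714 and 10 rows, so the zeros are not particular to the list.

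Between days in WT, 6 of 31 list genes rose and 5 fell, beside 33.7% of all rows called. The de novo methyltransferase Dnmt3b rose by 1.67 (adjusted p = 2.52e-05), and rose in each of the other genotypes as well, by 1.25 in TKO to 2.37 in Tet2-/-. The TKO clones lay far apart at D6 (193 and 623 CPM), and the lower one was within the D0 range of TKO (145 to 199 CPM). Gadd45b (2.62), Uhrf2 (1.20) and the glycosylase Neil3 (1.16) rose in WT, as did Cxxc4 and Gadd45g. These last 2 were near the floor of 3 counts at D0 (0.120 to 0.129 CPM for Cxxc4 and 0.082 to 0.279 CPM for Gadd45g) and at 3.02 to 5.15 and 4.28 to 6.03 CPM at D6, so no fold is given. Zfp57 (-2.71) and Trim28 (-1.12), which together guard imprinted methylation, fell, as did Prdm14 (-1.90), a repressor of methylation in naive cells, Apex1 (-1.43), an endonuclease of base excision repair, and Dnmt3l (-2.14, adjusted p = 8.68e-06). Dnmt3l went from 247 to 259 CPM at D0 to 47.4 to 64.1 CPM at D6 in WT, but its change was -0.10 in DKO (adjusted p = 0.840) and 0.47 in TKO (adjusted p = 0.302).

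In Tet1-/-, the same list had 7 genes up and 6 down between days, beside 31% of all rows called. In Tet2-/- 4 rose and 2 fell (19.4% of all rows), DKO had 5 up and 4 down (29.1%), and TKO had 6 up and 4 down (25.5%). Dnmt3b, Cxxc4, Gadd45b, Gadd45g, Prdm14 and Zfp57 were called in all 5 genotypes, each in 1 direction. Dnmt1 fell by 0.26 on the log2 scale in WT (adjusted p = 0.0434) and Uhrf1 by 0.59 (adjusted p = 4.92e-05), both under the 2-fold criterion, while Tdg differed by 0.24 (adjusted p = 0.324). Beside 9.24% of all rows in Tet2-/- and 3.58% in TKO, the interaction between knockout and day was called for Dnmt3a (1.18, adjusted p = 0.0228) and Gadd45b (-1.49, adjusted p = 0.00992) in Tet2-/- and for Dnmt3l (2.61, adjusted p = 0.00673) in TKO. In Tet1-/- and DKO 0 list genes had a called interaction by edgeR, with 3 at an unadjusted p under 0.05 in each, and DESeq2 called 0 and 1. Over all rows 0% were called in both, and 7.46% and 7.93% had an unadjusted p under 0.05.

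Of the 15 naive pluripotency markers, 13 fell and 0 rose between days in WT, and 9 fell and 0 rose in Tet2-/-. Dppa3 and Sall4 did not pass in either group, with log2 changes of 1.44 and 0.29 in WT (adjusted p = 0.117 and 0.0236). In Tet2-/- against WT at D6, 3 were higher (Pou5f1, Klf2 and Nr0b1) and 1 was lower (Dppa3), beside 14.6% of all rows. Sall4, Klf2 and Nr0b1 were named after their values were seen. Pou5f1, which encodes Oct4, fell between days in WT (-1.75, adjusted p = 6.58e-07), Tet1-/- (-1.26), DKO (-1.17) and TKO (-1.34), and its change in Tet2-/- was -0.54 (adjusted p = 0.0875). Zfp42 and Esrrb, both naive state genes, fell in all 5 genotypes, by 3.45 and 2.90 in WT and by 1.40 and 1.70 in Tet2-/-. Zfp42 was already lower in Tet2-/- than in WT at D0 (454 and 483 against 794 to 947 CPM, -0.91, adjusted p = 0.0118), a change under the 2-fold criterion. In that contrast 0 of the 15 naive markers were called, beside 2.93% of all rows. Nanog fell in WT (-1.11) and Tet1-/- (-1.10), and its change was -0.69 in Tet2-/-, -0.84 in DKO and 0.01 in TKO, none of which passed the 2-fold criterion. In Tet2-/- against WT at D6, Pou5f1 was higher (1.17, adjusted p = 0.0126). The marker calls in that contrast were not recomputed without either Tet2-/- clone. Pou5f1 carries the eGFP insert in every clone.

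The genes most like each Tet gene were found by Pearson's r of log2 levels, with each gene centred on its mean of the day, over 24 libraries and 15569 genes. The points share clones and libraries, so r is a description. For Tet1 the highest values were those of Mllt10 (r = 0.814), Kmt2c (r = 0.811) and Sik2 (r = 0.800). For Tet2 they were Cryl1 (r = 0.885), Mcm3ap (r = 0.861) and Ms4a6d (r = 0.838), the last at no more than 1.18 CPM. These 3 were closer at D0 (r = 0.923, 0.909 and 0.878) than at D6 (r = 0.651, 0.526 and 0.253). For Tet3 they were Mn1 (r = 0.876), Akirin2 (r = 0.810) and Ankrd54 (r = 0.810). Between the Tet genes themselves r was lower: 0.304 for Tet1 and Tet2, 0.264 for Tet1 and Tet3 and 0.298 for Tet2 and Tet3.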

How the data were processed

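Polyadenylated RNA was sequenced from 24 cultures, 1 clone each. The authors mapped paired-end reads with STAR 2.5.1 to build mm9 and deposited, per day, 1 table of raw counts per transcript row, named by gene symbol. The counting program's use of strand and of reads shared by transcripts is not given in the sources used here. Groups and clones were taken from the labels. A D6 DKO label without a decimal point was read as clone DKO_5.12.

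Here all 31928 rows (22926 symbols, 4911 with more than 1 row) were kept apart, and 0 ERCC spike-in rows were found, so the authors' spike-in scaling was not repeated. Library size and TMM factors (0.939 to 1.08) used the first row of each symbol. Quasi-likelihood fits were made with edgeR 4.0.16 in R 4.3.3 (filterByExpr, minimum count 10) for D0, D6 and all libraries, with Benjamini-Hochberg adjustment over all rows. Calls needed an adjusted p under 0.05 and a change over 2-fold, the study's criteria. DESeq2 1.42.0 was an alternative. In simulated counts with 200 rows changed 4-fold, the D0 fit recovered 96% in Tet2-/- and 95.5% in TKO. The D6 fit recovered 88% and 86.5%, with 12 and 6 false calls, and the interaction 88%. Smaller changes were not simulated. Permutation tests used log2 CPM with a pseudocount of 1, exact within a day and 100000 draws for correlations. The fits between days took libraries as unpaired, and clone was added as a block in an alternative, since libraries of the same clone are the same cell line, with deviations correlated over 0.1 in 10 of 11 clones. Clones were the replicates, so p-values measure the spread between clones of 1 parental line.

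Guide windows and alleles were read from the study's supplementary sequences and placed on mm9, with GENCODE vM1 for exons. Named genes were all Tet rows, the list genes called in any fit, Dnmt1, Dnmt3a, Dnmt3b, Dnmt3l, Uhrf1, Tdg and Ogt in any case, Pou5f1, Nanog, Zfp42 and Esrrb, and the 3 genes most like each Tet gene. The members and lists were chosen with earlier results of these data known.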

Additional observations from a re-analysis of the deposited data

Results flagged for a closer look

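The difference of Tet2-/- from WT on the Tet2 row itself differed between days, by a test of that change. In Tet2-/- against WT the log2 fold change was -2.09 at D0 and 0.21 at D6, and the interaction was 2.29 ± 0.613 (SE; edgeR, adjusted p = 0.0183). Tet2 in WT went from 91.0 ± 3.33 to 14.0 ± 1.99 CPM (SD, n = 3), and in Tet2-/- from 21.5 ± 1.45 to 16.2 ± 0.483 CPM (SD, n = 2). The summed level of 15 naive pluripotency markers at D6 was 3310 and 3521 CPM in Tet2-/- and 1717 to 2639 CPM in WT. Mesoderm, endoderm and trophectoderm marker sums were lower in Tet2-/-, and the formative and primed epiblast sum was higher. The neuroectoderm sum overlapped, with 3 of 4 genes tested called higher and 0 lower (14.6% of all rows called). The part of these markers in the result was not tested. In the other genotypes edited at Tet2 the interaction did not pass by edgeR, at 0.43 ± 0.612 in DKO (adjusted p = 0.908) and 1.85 ± 0.614 in TKO (adjusted p = 0.0764). No group held 4 or more libraries, so no search for single outlying libraries was made.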

How the results depend on the processing

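The results were recomputed with RLE scaling, library sizes and TMM from all rows, the first row of each symbol only, no filter on low counts, DESeq2, 1 fit of all 24 libraries, other pseudocounts, no scaling, replicate and clone blocks, and each library left out. Of 2159 values, 1996 kept their direction and their side of the threshold. Where they did not, the cause was not tested. With 2 or 3 clones in a group, variation among clones limited precision more than depth did.

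The first Tet1 row between days in WT passed the threshold with library sizes from all rows (-1.54, adjusted p = 0.0463), with no filter (-1.51, adjusted p = 0.0425), with DESeq2 (-1.53, adjusted p = 0.0493) and with clone as a replicate block (-1.46). The clone block also called both Tet1 rows in DKO (-1.33 each) and the Tet2 interaction in TKO (2.18), where the same clone is the same cell line and same-clone libraries of the 2 days correlated in their deviations at 0.088 to 0.203. It changed no other call of a Tet row. DESeq2 called the first Tet1 row in Tet2-/- at D6 (1.39) and Tet3 in TKO at D6 (-1.10), the latter called also in 1 fit of all 24 libraries (-1.12, adjusted p = 0.0108). DESeq2 called 1 list gene in DKO at D6, 3 in TKO at D6 and 1 in the DKO interaction, against 0 by edgeR.

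Same-numbered libraries of a day correlated in their deviations at -0.39 to 0.33 (median 0.074, 19 of 42 pairs over 0.1). Pairs of a day with other numbers correlated at -0.42 to 0.43 (median -0.061, 20 of 72 over 0.1). Whether a replicate number marks something shared was not tested. With the number as a replicate block, the first and second Tet1 rows became 0.12 and 0.11 in DKO against WT and -0.33 and -0.33 in TKO against DKO at D0, with no call before or after, and the second row between days in WT lost its call (-1.44, adjusted p = 0.0528). That block took calls over all rows in DKO at D0 from 6 to 21. Over all rows, counts also differed by over 1.5 times in Tet1-/- at D0 (1, against 10 with no filter, 18 in 1 fit and 69 by DESeq2), DKO at D0 (6, against 24 with no filter and 173 by DESeq2) and TKO against DKO at D0 (152, against 62 in 1 fit and 357 by DESeq2). At D6, 1 fit of all libraries called 146 rows in DKO and 719 in TKO, against 0, and the clone block called 15 rows in the DKO interaction, against 0. With the first row of each symbol only, 15569 in place of 23344 rows were tested, or 14456 and 15439 within a day, and counts fell to 454 (TKO at D0, 681 before), 2206 (Tet2-/- at D6, 3374), 2992 and 3944 (Tet2-/- and TKO between days, 4527 and 5959), 1364 and 549 (the interactions in Tet2-/- and TKO, 2157 and 835).

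With 1 library left out at a time, the first Tet1 row ranged from -2.34 to 1.94 between days in TKO, -0.73 to 0.42 in Tet1-/- and -1.74 to -1.31 in WT. It ranged from -0.57 to 0.12 at D0 and -0.51 to 0.45 at D6 in DKO, from -3.04 to 0.72 and -1.0003 to 1.14 in TKO, from -2.86 to 0.90 and -1.05 to 1.08 in TKO against DKO, from 1.29 to 1.44 in Tet2-/- at D6, and from -0.34 to 0.62 and -0.83 to 3.45 for the interactions in DKO and TKO. The second row gave -2.33 to 1.94 and -0.73 to 0.41 between days in TKO and Tet1-/-, -0.58 to 0.11 and -0.51 to 0.45 in DKO, -3.04 to 0.71 and -0.99 to 1.14 in TKO, -2.85 to 0.90 and -1.04 to 1.09 in TKO against DKO, and -0.33 to 0.63 and -0.81 to 3.45 for the interactions.

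Tet2 ranged from -1.60 to 0.78 between days in TKO and -2.78 to -1.46 in DKO, and from -2.26 to 0.18 in TKO against DKO at D0. Against WT at D0 and D6 it ranged from -2.06 to -0.74 and -1.25 to -0.45 in DKO, -3.51 to -1.14 and -0.38 to 0.27 in TKO, and -0.10 to 0.12 and -0.14 to 0.070 in Tet1-/-. In Tet2-/- at D0 it ranged from -2.16 to -2.03. Its interactions ranged from -0.077 to 1.24 in DKO, 1.11 to 3.48 in TKO, -0.21 to 0.012 in Tet1-/- and 2.22 to 2.42 in Tet2-/-, and edited against unedited at D6 from -0.27 to 0.0056. DKO at D0 passed without either TKO library (adjusted p = 0.0124 and 0.0132). Tet3 ranged from 0.95 to 1.59 and 0.98 to 1.22 between days in TKO and Tet1-/-, -0.20 to 0.14 in DKO at D0, -1.12 to -0.50 in TKO against DKO at D0, -1.17 to -0.55 and -1.27 to -0.97 in TKO at D0 and D6, -0.12 to 0.23 in Tet1-/- at D0 and -0.58 to 0.057 for the TKO interaction. Edited against unedited, it ranged from -0.99 to -0.50 at D0 and -0.88 to -0.72 at D6, where without either TKO library the exact permutation test gave p = 0.0909, the smallest it can give with 1 library against 10.

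The correlation with naive markers ranged from -0.43 to 0.54 (Tet1, D0), 0.50 to 0.73 (Tet1, D6), 0.30 to 0.78 (Tet2, D0) and 0.37 to 0.81 (Tet3, D0). Without the 2 libraries farthest from the median it was -0.19, 0.24, 0.12 and 0.35, and -0.78 for Tet3 at D6. The correlation of Tet3 between days, added after seeing the data, ranged from 0.30 to 0.68 and was -0.42 without the 2 farthest clones. The log2 ratio of the Tet1 rows ranged from -0.00093 to 0.00032 between days, -0.00071 to 0.00090 by edit at D0 and 0.0024 to 0.0048 by edit at D6.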
